A study of Mus musculus with 16 samples.

Results

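Oxidative phosphorylation is the last stage of aerobic energy production, and the 95 genes described here encode the nuclear part of its machinery. They were taken from the array annotation by symbol: all genes starting with Ndufa, Ndufb, Ndufc, Ndufs, Ndufv, Uqcr, Atp5 or Cox4 to Cox8, together with Sdha, Sdhb, Sdhc, Sdhd, Cyc1 and Cycs. Where a gene had several probe sets, the brightest on average was to be used, but each of the 95 had a single one. They were 95 of 19505 genes tested, namely 38 of complex I, 4 of complex II, 9 of complex III, 1 for cytochrome c, 18 of complex IV and 17 of complex V. The symbol prefix Ndufa also took in 8 assembly factors of complex I, whose symbols start with Ndufaf and which are not subunits. They are counted on their own.

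RNA came from 8 liver samples of a mouse model of NASH (nonalcoholic steatohepatitis, fatty liver disease with inflammation), and from 8 control liver samples, all from C57BL/6 mice and each on 1 array. The labels do not say how NASH was induced, and give no age, sex, batch or date for either group. They also do not state that the samples are from separate animals, and the p-values therefore reflect only variation among these arrays, which may be technical. NASH model samples are named here by the numbers 1a, 1b and 2 to 7 of their labels, and controls by 1, 3 to 7, 9 and 10.

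Mitochondria draw electrons from NADH at complex I and from succinate at complex II, hand them on through complex III and cytochrome c to oxygen at complex IV, and pump protons at complexes I, III and IV. Complex V, the ATP synthase, lets the protons return and makes ATP. Apart from complex II, which is wholly encoded in the nucleus, each complex also has subunits encoded by mitochondrial DNA, which are not among these genes. Hepatocytes are rich in mitochondria and use them for fatty acid oxidation, gluconeogenesis and the urea cycle.

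Values are log2 array signals per gene, compared with limma and called where the p, adjusted over the whole table by Benjamini-Hochberg, was under 0.05, and differences are NASH model minus control. Levels of different genes come from different probes and are not set against each other. The median signal of the arrays as deposited lay between 3.58 and 3.66 in NASH model samples and between 3.52 and 3.56 in control samples, without overlap. The signal was quantile normalized before the tests. The tissue was checked by 19 hepatocyte genes. Their mean level was 10.87 to 11.09 in NASH model samples and 11.17 to 11.25 in control samples. By the limma test 6 were lower and 0 higher, with 3 higher at an unadjusted p under 0.05 and 3 higher by the exact permutation test. The fall in the mean was not shared by most of them: 11 of the 19 lay above 0, with a median difference of 0.01 and a lowest of -1.39. Recruited macrophage markers averaged 7.35 to 7.95 in NASH model samples, against 4.002 to 4.74 in control samples (12 of 13 higher), and stellate cell and myofibroblast markers averaged 6.53 to 7.16 in NASH model samples, against 5.18 to 5.59 in control samples (12 of 15 higher). In such bulk tissue, fewer cells of a type and less RNA per cell cannot be told apart. The part of these cell type markers in the results on the respiratory genes was not tested.

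Of the 95 genes, 17 fell in the NASH model (17.9%) and 1 rose (1.05%), while 77 did not pass the test. Over all genes tested, 13.4% were called lower, 13.2% higher and 26.6% in either direction, so the share lower was close to that of all genes and the share higher was below it. The changes were small: the 17 differences lay between -0.67 and -0.22 on the log2 scale, or 1.59-fold to 1.16-fold lower. By complex, the calls were 9 of 38 lower in complex I, 1 of 4 in complex II, 2 of 9 in complex III, 0 of 18 in complex IV, 3 of 17 in complex V and 2 of 8 among the assembly factors, and the 1 gene that rose belongs to complex IV. At an unadjusted p under 0.05, 28 genes were lower and 2 higher. Counts of all genes at that threshold were not taken, so such counts have no share to be read against. By the exact permutation test 25 of the 95 genes were lower and 2 higher, against 2594 lower and 2504 higher of all 19505 genes. Below 0 on average were 75 of the 95 genes (78.9%), against 56.8% of all genes, and the median difference was -0.12, against -0.04 over all genes.

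The groups overlapped for all but 3 of these genes, Ndufaf1, Ndufb11 and Ndufa6, each lower in the NASH model. Over all genes tested, 3.89% lay wholly lower and 5.65% wholly higher in the NASH model. Leaving out NASH model 2 and 7 brought the count of genes lower to 10, a clock score as a covariate to 7, and scaling to spike-in controls to 6, while centring arrays on their medians raised it to 38. Over all 19505 genes the counts lower moved as well. They were 2107, 1255, 1179 and 3646 under the same settings in that order, against 2619 as reported. The median of all genes itself moved between -0.12 with median centring and 0.06 with spike-in centring, and that of the 95 genes lay 0.07 below it as reported, 0.09 below it with cyclic loess, and 0.08 below it with median centring, with the values as deposited and with spike-in centring. In the last 3, which shift each array by a constant, that distance is the same by construction.

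**Figure D1:**
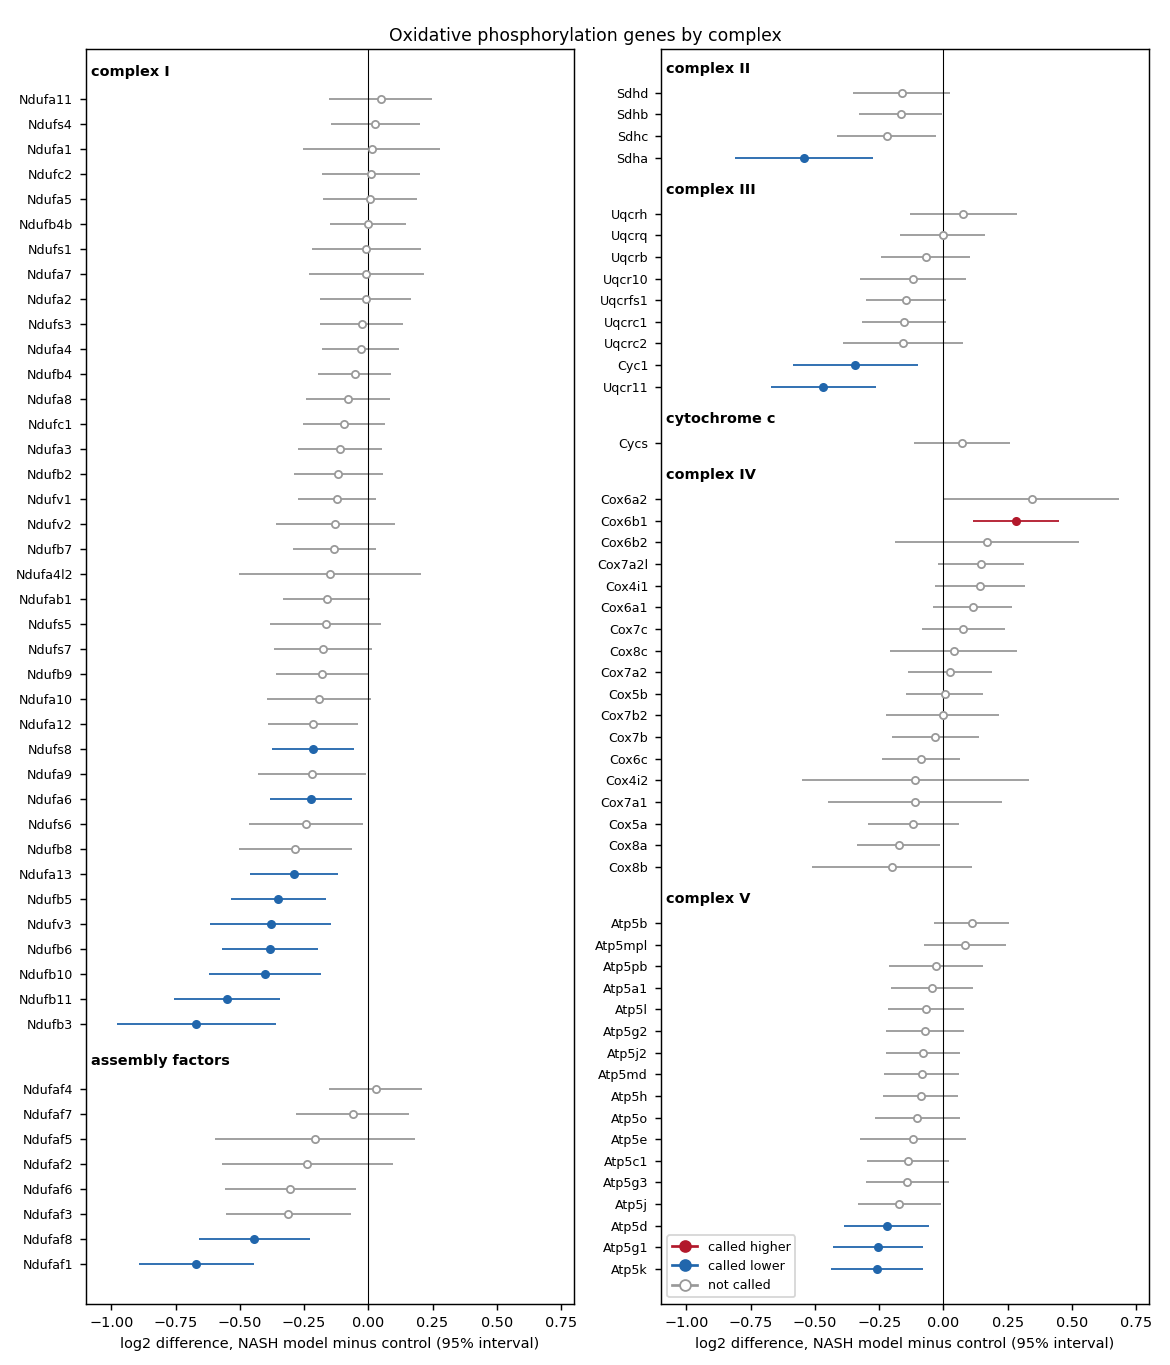
Each row is 1 of the 95 genes, grouped by complex, and the horizontal axis is the log2 difference (NASH model minus control) with its 95% confidence interval from limma; colour marks genes called higher, lower or not called. The 17 genes called lower lie between -0.67 and -0.22, and the 1 called higher, Cox6b1, lies at 0.28.

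The start regions printed here are those of Ndufaf1 and Ndufb3, which had the lowest differences of the 95 genes, of Cox6b1, the 1 gene called higher, and of Sdha and Uqcr11, which were added after their values were seen because they hold motifs. Nuclear respiratory genes are known to be driven by the factors NRF1, GABP (an ETS factor), YY1 and the estrogen-related receptors, so 280 bases of RefSeq sequence (GRCm38.p6, 250 before to 30 after the gene start) were searched on both strands for the cores GCGCANGCG (NRF1), CCGGAAGT (ETS), AAGATGGCG (YY1) and TCAAGGTCA (ERR). Capitals mark these cores. The regions are chr2:119662805-119663084 (minus strand) for Ndufaf1, chr1:58586147-58586426 (plus strand) for Ndufb3, chr7:30626085-30626364 (minus strand) for Cox6b1, chr13:74350211-74350490 (minus strand) for Sdha and chr10:80406792-80407071 (minus strand) for Uqcr11.
Ndufaf1: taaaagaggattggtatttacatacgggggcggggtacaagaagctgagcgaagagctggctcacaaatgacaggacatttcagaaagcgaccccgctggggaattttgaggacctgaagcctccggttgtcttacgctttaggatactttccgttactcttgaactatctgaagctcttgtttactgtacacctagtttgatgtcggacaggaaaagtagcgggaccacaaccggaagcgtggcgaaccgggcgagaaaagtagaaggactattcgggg
Ndufb3: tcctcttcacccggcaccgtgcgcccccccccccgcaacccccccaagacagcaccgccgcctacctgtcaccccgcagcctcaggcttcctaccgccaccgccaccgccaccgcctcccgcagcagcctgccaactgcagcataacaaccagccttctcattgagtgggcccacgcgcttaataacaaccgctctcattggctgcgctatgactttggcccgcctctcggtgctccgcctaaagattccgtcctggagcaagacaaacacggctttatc
Cox6b1: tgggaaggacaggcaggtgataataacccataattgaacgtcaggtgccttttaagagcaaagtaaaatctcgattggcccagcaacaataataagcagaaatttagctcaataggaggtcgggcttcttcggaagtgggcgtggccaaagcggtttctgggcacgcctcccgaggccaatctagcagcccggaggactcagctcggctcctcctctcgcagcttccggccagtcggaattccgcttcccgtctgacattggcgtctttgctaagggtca
Sdha: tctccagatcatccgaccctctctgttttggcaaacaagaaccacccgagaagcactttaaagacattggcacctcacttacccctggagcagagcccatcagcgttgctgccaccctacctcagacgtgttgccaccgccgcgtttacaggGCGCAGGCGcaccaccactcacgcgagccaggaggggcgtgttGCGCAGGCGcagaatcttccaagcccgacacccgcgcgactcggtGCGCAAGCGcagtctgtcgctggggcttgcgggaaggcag
Uqcr11: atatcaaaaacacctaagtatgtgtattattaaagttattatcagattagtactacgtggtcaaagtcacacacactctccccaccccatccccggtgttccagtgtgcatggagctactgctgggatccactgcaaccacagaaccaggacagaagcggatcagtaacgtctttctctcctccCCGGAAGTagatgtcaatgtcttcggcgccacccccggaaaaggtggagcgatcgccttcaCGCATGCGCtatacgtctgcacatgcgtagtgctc

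Sdha held 3 NRF1 cores, Uqcr11 held 1 NRF1 core and 1 ETS core, and Ndufaf1, Ndufb3 and Cox6b1 held none of the 4 in this window, and no 2 of the printed cores overlapped. A start region was found for 78 of the 95 genes, and 22 of them (28.2%) held the NRF1 core, against 1826 of 27025 genes of the table (6.76%). The ETS core was in 6.41% of the 78, against 4.12% of all, the YY1 core in 2.56%, against 1.23%, and the ERR element in 1.28%, against 0.459%. Among the genes called lower the NRF1 core was in 4 of 16 (25.0%), and among those not called in 18 of 61 (29.5%). By complex it was in 7 of 34 of complex I, 2 of 3 of complex II, 2 of 5 of complex III, 1 of 13 of complex IV and 7 of 15 of complex V. A match describes these letters and is not a site of binding.

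Complex I is the largest of the complexes and the main entry for electrons from NADH. In the NASH model, 9 of its 38 genes fell (23.7%, against 13.4% of all genes) and 0 rose. At an unadjusted p under 0.05, 14 were lower and 0 higher, and by the exact permutation test 11 were lower and 0 higher. In all, 33 of the 38 lay below 0, with a median difference of -0.14. The arm that reaches into the membrane farthest from the entry site, the distal arm, held 5 of the 9, namely Ndufb3, Ndufb5, Ndufb6, Ndufb10 and Ndufb11. These are accessory subunits, which stabilise the complex and carry no redox centre. Of the 11 genes assigned to this arm (Ndufab1, the mitochondrial acyl carrier protein, and 10 Ndufb genes), 5 were called (45.5%), all 11 lay below 0, and the median difference was -0.28, or -0.13 with spike-in centring. Ndufb4b, a close relative of Ndufb4 that was left out of this set, differed by 0.00, and signals of that pair may share transcripts.

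Ndufb3 had the lowest difference of the subunits. Its level in NASH model samples had a lowest value of 5.11, a median of 5.85 and a highest of 6.19, against 6.19, 6.50 and 6.73 in control samples. The means were 5.81 ± 0.36 and 6.48 ± 0.25 (SD, n = 8 each), a log2 difference of -0.67 ± 0.15 (SE, limma adjusted p = 0.00180). The groups met at their edges, NASH model 4 being as high as control 3, and NASH model 2 was the lowest of all. With the clock score as a covariate the difference was -0.50 and the call was lost (limma adjusted p = 0.140).

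Ndufb11, whose gene lies on the X chromosome, had levels of 6.22, 6.75 and 6.96 (lowest, median and highest) in NASH model samples, against 7.15, 7.20 and 7.41 in control samples. All 8 NASH model samples were below all 8 controls. Its means were 6.69 ± 0.23 in NASH model samples and 7.24 ± 0.10 in control samples (SD, n = 8 each), a difference of -0.55 ± 0.10 (SE, limma adjusted p = 0.000264). It was called under each of the 30 alternative settings run, which were 14 changes of scaling, filter, model or samples and 16 omissions of 1 sample.

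Ndufb10 had levels of 6.09, 6.22 and 6.42 in NASH model samples, against 6.35, 6.67 and 6.95 in control samples, a difference of -0.40 ± 0.10 (SE, limma adjusted p = 0.00654). Ndufb6 had 6.80, 7.12 and 7.34 in NASH model samples, against 7.22, 7.44 and 7.62 in control samples, a difference of -0.38 ± 0.09 (SE, limma adjusted p = 0.00300). In both genes the groups overlapped at their edges while the medians stood apart. Each was called in 28 of the 30 alternatives, and spike-in centring was among those in which both calls were lost (limma adjusted p = 0.138 for Ndufb10 and 0.0523 for Ndufb6). Ndufb5 also fell, by 0.35 ± 0.09 on the log2 scale (SE, limma adjusted p = 0.00555). Its call was lost with the replicate number as a block (limma adjusted p = 0.0725) and with the clock score (limma adjusted p = 0.0778). Ndufb8 had a difference of -0.28 that did not pass (limma adjusted p = 0.0535). It passed without NASH model 4 or 5 or without control 1 or 7 (lowest limma adjusted p = 0.0278).

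The module that oxidises NADH, the N module, held 2 of its 10 genes lower, Ndufv3 and Ndufa6. Ndufv3, a small accessory subunit beside the flavoprotein, fell by 0.38 ± 0.11 on the log2 scale (SE, limma adjusted p = 0.0159), a call kept in 25 of the 30 alternatives and lost, among others, with the values as deposited (-0.25, limma adjusted p = 0.112), with spike-in centring (-0.16, limma adjusted p = 0.397), with the clock score (-0.33, limma adjusted p = 0.235) and without NASH model 2 and 7 (-0.31, limma adjusted p = 0.0541). Ndufa6 showed a smaller difference with less spread: its levels were 7.65 to 7.91 in NASH model samples, against 7.95 to 8.25 in control samples, without overlap, and the difference was -0.22 ± 0.08 (SE, limma adjusted p = 0.0339). Its call was nonetheless kept in 19 of the 30 alternatives. It was lost on leaving out control 6 or 10 or NASH model 1b, 2, 4 or 6 (highest limma adjusted p = 0.0695). With spike-in centring (-0.15, limma adjusted p = 0.343) and with the clock score (-0.22, limma adjusted p = 0.248) it was also lost. The same held with the replicate number as a block (limma adjusted p = 0.248), without NASH model 1a and 1b (limma adjusted p = 0.0731) and without NASH model 2 and 7 (limma adjusted p = 0.0663). The catalytic subunits of this module, Ndufv1, which binds FMN and NADH, and the iron-sulphur proteins Ndufv2 and Ndufs1, had differences of -0.12, -0.13 and -0.01 and did not pass (limma adjusted p = 0.240, 0.447 and 0.972).

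The Q module, which passes electrons to ubiquinone, had 1 of 5 genes lower, Ndufs8, an iron-sulphur protein of the electron path (-0.22 ± 0.08, SE, limma adjusted p = 0.0438). That call was kept in 12 of the 30 alternatives. It was lost on leaving out any of 11 of the 16 samples. These were control 3, 4, 5 or 7 and NASH model 1a, 1b, 2, 3, 5, 6 or 7 (highest limma adjusted p = 0.0863). Among others, it was also lost with spike-in centring (limma adjusted p = 0.280) and with the clock score (limma adjusted p = 0.240). The proximal arm of the membrane part had 1 of 9 genes lower, Ndufa13, also known as GRIM-19 (-0.29 ± 0.08, SE, limma adjusted p = 0.0123). Its call was kept in 26 of the 30 alternatives and lost, among others, with spike-in centring (limma adjusted p = 0.0924), with the clock score (limma adjusted p = 0.0754) and without NASH model 2 and 7 (limma adjusted p = 0.0515). Ndufs4, an accessory subunit whose loss in mice causes a fatal encephalopathy, had a difference of 0.03 (limma adjusted p = 0.858).

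Ndufa4 and Ndufa4l2 are a pair of related genes. Ndufa4 keeps its complex I name although its protein is now placed in complex IV, and Ndufa4l2 is a hypoxia-induced relative. Ndufa4 had levels of 9.83, 9.98 and 10.04 in NASH model samples, against 9.86, 10.03 and 10.10 in control samples, and the difference of -0.03 did not pass (95% interval -0.18 to 0.12, limma adjusted p = 0.811). Ndufa4l2 was near background, below the floor of 2.89 in 3 of 8 NASH model samples and in 1 of 8 control samples, with a difference of -0.15 (95% interval -0.50 to 0.21, limma adjusted p = 0.581). The floor is the 95th percentile of 1412 olfactory and vomeronasal receptor genes.

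**Figure D2:**
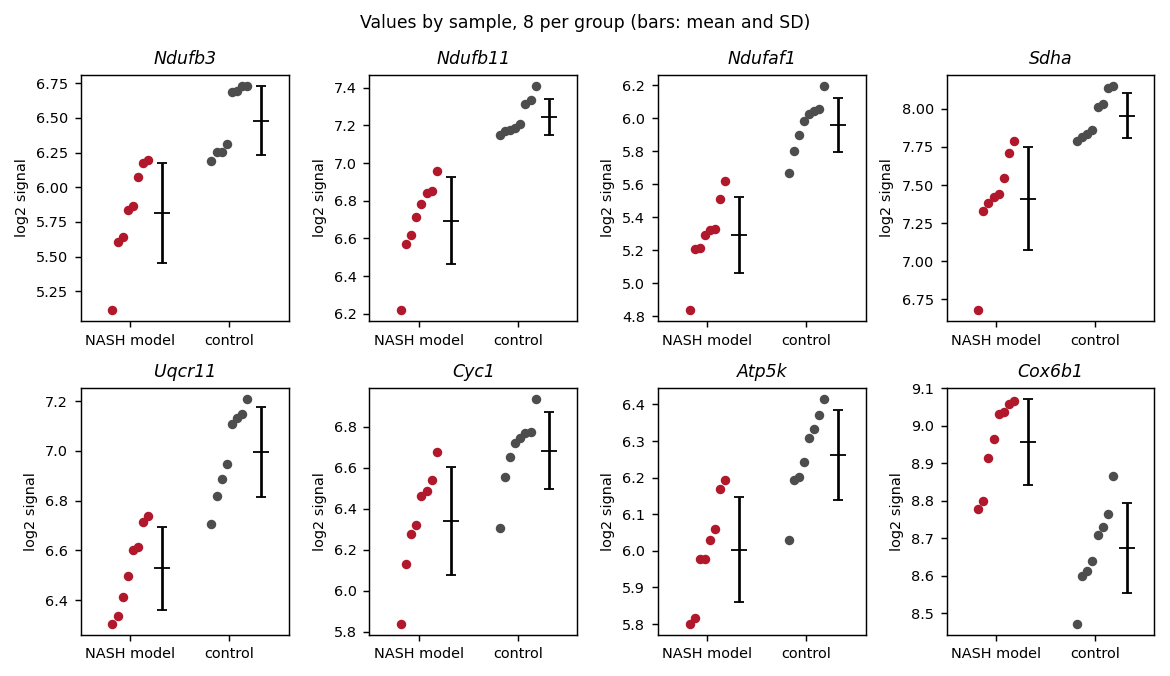
Log2 signal of named genes in each sample, NASH model left and control right in every panel, with a point per sample, sorted by value, and bars for the mean and SD (8 per group, log2 axes that differ between panels). Ndufaf1 and Ndufb11 show no overlap between the groups, Ndufb3 and Sdha meet at their edges, and Cox6b1 lies higher in the NASH model.

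The assembly factors bring complex I subunits together without staying in the finished enzyme. Ndufaf1, which acts on the membrane arm, had levels of 4.84, 5.31 and 5.62 in NASH model samples, against 5.67, 6.01 and 6.20 in control samples. The groups did not overlap, and the means of 5.29 ± 0.23 in NASH model samples and 5.96 ± 0.17 in control samples (SD, n = 8 each) differed by -0.67 ± 0.11 (SE, limma adjusted p = 7.99e-05), the lowest p of the 95 genes and called in each of the 30 alternatives. Ndufaf8, which acts with Ndufaf5, had levels of 4.33, 4.54 and 4.87 in NASH model samples, against 4.74, 5.02 and 5.28 in control samples, a difference of -0.44 ± 0.10 (SE, limma adjusted p = 0.00297).

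That call was lost with the values as deposited (-0.29, limma adjusted p = 0.0521) and with spike-in centring (-0.19, limma adjusted p = 0.304). Of the other 6 assembly factors, Ndufaf3 had a difference of -0.31 (limma adjusted p = 0.0537) that passed without control 1 or 6 or without NASH model 1a or 7 (lowest limma adjusted p = 0.0285). Ndufaf6 had -0.30 (limma adjusted p = 0.0728) and passed without control 5 or 7 (lowest limma adjusted p = 0.0103). In the wider list of 15 complex I assembly factors, 5 fell and 0 rose. At an unadjusted p under 0.05, 8 were lower and 0 higher, and by the exact permutation test 5 were lower and 0 higher. The median difference was -0.25, or -0.03 with spike-in centring (all genes 0.06). With that scaling the calls of Foxred1, Ndufaf8 and Ecsit were lost (limma adjusted p = 0.818, 0.304 and 0.0563).

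Timmdc1, an inner membrane protein that also helps to build the membrane arm, was lower by a difference of -0.56 ± 0.10 (SE, limma adjusted p = 0.000164).

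Complex II, succinate dehydrogenase, is shared by the respiratory chain and the citric acid cycle. Its 4 genes all lay below 0, with a median difference of -0.19, and 1 of them passed. Sdha, the flavoprotein that oxidises succinate, had levels of 6.68, 7.43 and 7.79 in NASH model samples, against 7.79, 7.94 and 8.15 in control samples. NASH model 7 was the lowest at 6.68, with the next NASH model sample at 7.33, and the groups met at their edges. The means were 7.41 ± 0.34 in NASH model samples and 7.95 ± 0.15 in control samples (SD, n = 8 each), a difference of -0.54 ± 0.13 (SE, limma adjusted p = 0.00320), and it was called in each of the 30 alternatives, including without NASH model 7.

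The other subunits showed smaller differences. Sdhb, the iron-sulphur subunit, had levels of 8.83, 8.90 and 9.07 in NASH model samples, against 8.97, 9.07 and 9.33 in control samples, and a difference of -0.17 (limma adjusted p = 0.124). Sdhc, a membrane anchor, had levels of 6.77, 7.18 and 7.37 in NASH model samples, against 7.25, 7.35 and 7.49 in control samples, and a difference of -0.22 (limma adjusted p = 0.0876). Sdhd, the other anchor, had levels of 8.41, 8.53 and 8.86 in NASH model samples, against 8.60, 8.68 and 9.01 in control samples, and a difference of -0.16 (limma adjusted p = 0.203). None of these 3 passed with limma, while at an unadjusted p under 0.05 complex II had 3 genes lower and with the exact permutation test also 3. With median centring all 4 were called lower.

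Complex III passes electrons on from ubiquinol to cytochrome c. Of its 9 genes, 2 fell and 0 rose, with 2 lower and 0 higher at an unadjusted p under 0.05 and 4 lower and 0 higher by the exact permutation test. The median difference was -0.15, and 8 of the 9 lay below 0. Uqcr11, its smallest subunit, had levels of 6.31, 6.55 and 6.74 in NASH model samples, against 6.71, 7.03 and 7.21 in control samples, with overlap at the edges. Its difference was -0.47 ± 0.10 (SE, limma adjusted p = 0.00113), and it lost its call in 1 of 30 alternatives, with the clock score (limma adjusted p = 0.0740).

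Cyc1, the cytochrome c1 that hands electrons to cytochrome c, had levels of 5.84, 6.39 and 6.68 in NASH model samples, against 6.31, 6.73 and 6.94 in control samples. The difference was -0.34 ± 0.12 (SE, limma adjusted p = 0.0348), and the ranges overlapped. This call was kept in 16 of 30 alternatives. It was lost on leaving out control 3, 4, 5, 7 or 10 or NASH model 2, 3, 4 or 7 (highest limma adjusted p = 0.0687). With spike-in centring (-0.21, limma adjusted p = 0.240) and without NASH model 2 and 7 (-0.22, limma adjusted p = 0.144) it was also lost. The same held with the replicate number as a block, cyclic loess and the values as deposited (limma adjusted p = 0.143, 0.0593 and 0.0571). The core proteins Uqcrc1 and Uqcrc2 and the Rieske iron-sulphur protein Uqcrfs1 had differences of -0.15, -0.16 and -0.15 and did not pass with limma, and Uqcrh, the hinge protein that docks cytochrome c, had 0.08.

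Cycs, cytochrome c itself, which also starts apoptosis when it leaves the mitochondria, had levels of 8.93, 9.05 and 9.17 in NASH model samples, against 8.68, 8.99 and 9.25 in control samples. The NASH model range lay within the control range, and the difference of 0.07 ± 0.09 did not pass (95% interval -0.12 to 0.26, SE, limma adjusted p = 0.621). With median centring its sign turned to -0.05.

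Complex IV, cytochrome c oxidase, reduces oxygen to water. Its nuclear genes lay around 0: 1 of 18 rose, 0 fell, and the median difference was 0.02, with 10 genes above 0 and 8 below. These counts include 5 genes near background (Cox6b2, Cox8c, Cox7b2, Cox4i2 and Cox8b) that lay below the floor in most samples. Without them, a choice made after the values were seen, 8 genes lay above 0 and 5 below, and the median difference was 0.03. At an unadjusted p under 0.05, 2 were higher and 1 lower, and by the exact permutation test 1 was higher and 1 lower. The sign of this median turned with the scaling, as the median of all genes moved too. Over the 18 genes it was -0.11 with median centring (all genes -0.12) and -0.03 with the values as deposited (all genes -0.04). Over the 13 that remain without the 5 near background, it was -0.08 with median centring and 0.00 with the values as deposited. Whether complex IV differs from the other complexes was not tested.

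Cox6b1, which links the monomers of the enzyme and faces cytochrome c, had levels of 8.78, 8.998 and 9.07 in NASH model samples, against 8.47, 8.67 and 8.87 in control samples. The means were 8.96 ± 0.12 in NASH model samples and 8.67 ± 0.12 in control samples (SD, n = 8 each), a difference of 0.28 ± 0.08 (SE, limma adjusted p = 0.0127), and the ranges overlapped. Its call was lost in 4 of the 30 alternatives, among them median centring (0.17, limma adjusted p = 0.111), the clock score (0.23, limma adjusted p = 0.238) and the omission of NASH model 1a and 1b (0.25, limma adjusted p = 0.0514). Its testis-type relative Cox6b2 lay below the floor in 6 of 8 NASH model samples and in 6 of 8 control samples, with a difference of 0.17 (limma adjusted p = 0.528).

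Several complex IV subunits exist as a form found in liver and most tissues and a form of heart and skeletal muscle. Cox4i1, the widespread form of subunit IV, had levels of 8.68, 8.83 and 9.13 in NASH model samples, against 8.60, 8.71 and 8.85 in control samples, and a difference of 0.14 (limma adjusted p = 0.240). Cox6a1, the liver form of its subunit, had 10.24, 10.38 and 10.48 in NASH model samples, against 10.09, 10.27 and 10.38 in control samples, and a difference of 0.11 (limma adjusted p = 0.284). Cox6a2, the muscle form, had 3.69, 4.18 and 4.64 in NASH model samples, against 3.26, 4.04 and 4.31 in control samples, and a difference of 0.34 ± 0.16 (SE, limma adjusted p = 0.134).

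Cox6a2 passed with the values as deposited (0.47, limma adjusted p = 0.0337) and with spike-in centring (0.57, limma adjusted p = 0.0205), the other settings leaving it uncalled. Cox7a2, the liver form of subunit VIIa, had 8.39, 8.53 and 8.59 in NASH model samples, against 8.20, 8.52 and 8.62 in control samples, and a difference of 0.03 (limma adjusted p = 0.856). Cox7a2l, a supercomplex assembly factor, had 7.94, 8.20 and 8.33 in NASH model samples, against 7.91, 8.01 and 8.10 in control samples, and a difference of 0.15 (limma adjusted p = 0.201).

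The muscle form Cox7a1 was low in both groups, with levels of 2.90, 3.10 and 3.68 in NASH model samples, against 2.65, 3.21 and 4.04 in control samples, and a difference of -0.11 (limma adjusted p = 0.682). It passed in 1 alternative, as lower with the clock score as a covariate (-0.65, limma adjusted p = 0.0158). Cox8a, the widespread form of subunit VIII, had 9.57, 9.65 and 9.87 in NASH model samples, against 9.68, 9.88 and 10.04 in control samples, and a difference of -0.17 (limma adjusted p = 0.109). It passed as lower with median centring, with the trend and robust options and with the exact permutation test.

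Other tissue-specific genes of complex IV were near background. Cox4i2, the hypoxia-linked form, lay below the floor in 5 of 8 NASH model samples and 6 of 8 control samples, and Cox8b in 8 of 8 NASH model samples and 6 of 8 control samples. Cox8c lay below it in 7 of 8 NASH model samples and 8 of 8 control samples, and the testis form Cox7b2 in all 16, so it has no fold. Skeletal muscle markers had a mean level of 2.55 to 3.05 in NASH model samples and 2.63 to 3.19 in control samples, close to the floor, with 1 of 11 genes called lower and 0 higher (3 lower and 0 higher at an unadjusted p under 0.05). Their part in the levels of the muscle forms was not tested.

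Complex V, the ATP synthase, has a catalytic head, a ring of c subunits, and stalk and membrane parts. In the NASH model, 3 of its 17 genes fell (17.6%) and 0 rose, and 15 of the 17 lay below 0. Their median difference was -0.09, which became -0.18 with median centring (all genes -0.12) and -0.003 with spike-in centring (all genes 0.06). At an unadjusted p under 0.05, 4 were lower and 0 higher, and by the exact permutation test 4 were lower and 1, Atp5b, higher. The differences were among the smallest of the 17 genes called: each lay between -0.26 and -0.22.

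Atp5k, subunit e of the membrane part, had levels of 5.80, 6.00 and 6.19 in NASH model samples, against 6.03, 6.28 and 6.41 in control samples, and a difference of -0.26 ± 0.09 (SE, limma adjusted p = 0.0287). Atp5d, the delta subunit of the head, had 9.64, 9.87 and 10.05 in NASH model samples, against 9.97, 10.08 and 10.18 in control samples, and a difference of -0.22 ± 0.08 (SE, limma adjusted p = 0.0441). Atp5g1 is one of the 3 genes for the c subunit, which differ in their import sequence but give the same mature protein. It had 9.41, 9.55 and 9.78 in NASH model samples, against 9.66, 9.85 and 10.02 in control samples, and a difference of -0.25 ± 0.08 (SE, limma adjusted p = 0.0292).

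In each of these 3 genes the ranges overlapped. All 3 calls were lost with the values as deposited, cyclic loess, spike-in centring, the replicate number as a block and the clock score. Of the 30 alternatives, 21 kept the call of Atp5k, 16 that of Atp5g1 and 10 that of Atp5d. Leaving out control 1 or 3 or NASH model 2 or 4 ended the call of Atp5k (highest limma adjusted p = 0.0594). Leaving out control 5, 7 or 10 or NASH model 1a, 1b or 3 ended that of Atp5g1 (highest limma adjusted p = 0.0592). Leaving out control 1, 3, 5, 6, 9 or 10 or NASH model 1a, 1b, 3, 6 or 7 ended that of Atp5d (highest limma adjusted p = 0.0865).

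The sister genes of the c ring did not pass. Atp5g2 had levels of 9.49, 9.61 and 9.69 in NASH model samples, against 9.54, 9.67 and 9.79 in control samples, and a difference of -0.07 (95% interval -0.22 to 0.08, limma adjusted p = 0.523). Atp5g3 had 9.23, 9.43 and 9.66 in NASH model samples, against 9.47, 9.58 and 9.67 in control samples, and a difference of -0.14 (95% interval -0.30 to 0.02, limma adjusted p = 0.210), and passed with median centring. The catalytic subunits Atp5a1 and Atp5b had differences of -0.05 and 0.11 (limma adjusted p = 0.725 and 0.280).

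Genes that did not pass may still differ. Over the 95 genes, the 95% interval of the difference reached a median of 0.18 to either side of the estimate. Among genes not called, the intervals extended as low as -0.60 among the assembly factors and -0.50 in complex I. In complex IV the intervals reached down to -0.55 for Cox4i2, which was near background, and up to 0.68 for Cox6a2.

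Mean levels over each complex were set against the control mean in every sample. Over the 95 genes, NASH model samples lay at -0.19 to -0.02 and control samples at -0.07 to 0.07, so the groups overlapped. In complex I, NASH model samples lay at -0.30 to -0.02 and control samples at -0.08 to 0.08, and in complex V NASH model samples lay at -0.16 to -0.04 and control samples at -0.08 to 0.08, both with overlap. In the distal arm of complex I, NASH model samples lay at -0.47 to -0.13 and control samples at -0.10 to 0.09, without overlap. Complex III (-0.26 to -0.06 in NASH model samples, -0.06 to 0.11 in control samples) and the assembly factors (-0.34 to -0.16 in NASH model samples, -0.12 to 0.16 in control samples) did not overlap either. In complex III the groups all but met, with the highest NASH model sample at -0.059 and the lowest control at -0.056. In complex II, NASH model samples lay at -0.50 to -0.04 and control samples at -0.09 to 0.15, and in complex IV at -0.08 to 0.11 in NASH model samples and -0.06 to 0.09 in control samples.

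Over the 95 genes, NASH model 5 stood nearest to the controls and NASH model 2 farthest. This order did not hold in each complex: the lowest NASH model sample was 7 in complex II, 3 in complexes III and IV, 1b in complex V and 6 among the assembly factors, and in complexes IV and V the highest was 7. NASH model 5 was the highest of its group in 25 of the 95 genes and in 7 of the 17 called lower, and NASH model 2 was the lowest in 21 of the 95. NASH model 5 also had the lowest mean of its group for macrophage markers (7.35), stellate cell markers (6.53) and cholangiocyte markers (3.47, with the other NASH model samples reaching 5.66 and control samples at 3.25 to 3.88), while NASH model 7 had the highest mean of all 3 lists. Other cell lists had another lowest NASH model sample: 7 for hepatocyte and Kupffer cell genes, 6 for endothelial and for T, B and NK cell genes, and 3 for neutrophil and adipocyte genes. For skeletal muscle genes it was again 5. Over the 95 genes NASH model 7 lay at -0.12, inside the range of its group. The part of these differences in cell content in the levels of respiratory genes was not tested.

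**Figure D3:**
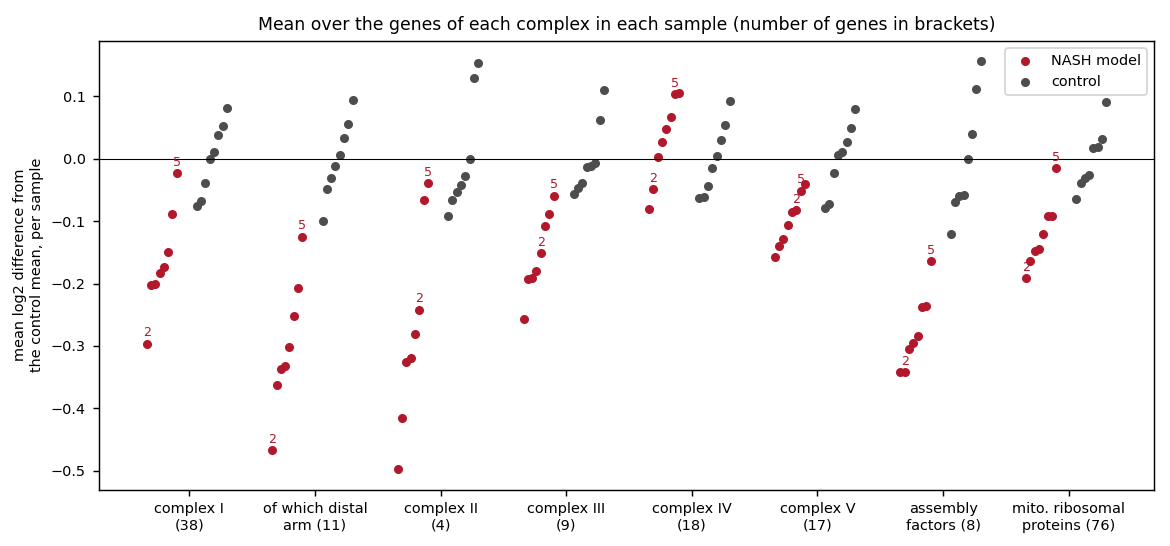
Mean log2 level of the genes of each complex in each sample, relative to the control mean, NASH model left of control; a point is a sample and the labels 2 and 5 mark NASH model samples 2 and 5. The distal arm of complex I and the assembly factors show no overlap between the groups. In complex III the groups all but meet, and complex IV lies around 0 in both.

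The lists around the respiratory chain are given by their counts, to be read against the 13.4% of all genes called lower and 13.2% called higher, and no list was tested as a whole. With median centring the medians of all 7 lists drawn in the plot of related lists lay below 0, as did that of all genes (-0.12). With spike-in centring the median of all genes was 0.06, so signs of list medians are to be read beside it. Of 29 assembly factors of complexes II to V, 9 fell and 0 rose, with a median difference of -0.13, or -0.0003 with spike-in centring. At an unadjusted p under 0.05, 10 were lower and 0 higher, and by the exact permutation test 9 were lower and 0 higher. With spike-in centring the calls of Coa4, Coa5, Cox14, Surf1, Tmem70, Atpaf2 and Bcs1l were lost (limma adjusted p = 0.0853 to 0.808). Cox11, which delivers copper to complex IV, fell by 0.79 ± 0.12 on the log2 scale (SE, limma adjusted p = 4.56e-05), and Cox18, which inserts a complex IV subunit into the membrane, fell by 0.51 ± 0.11 (SE, limma adjusted p = 0.00117).

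Mitochondrial ribosomal proteins, which translate the subunits encoded in mitochondrial DNA, had 17 of 76 genes lower (22.4%) and 3 higher, with a median difference of -0.12 that turned to 0.04 with spike-in centring. Of 14 regulators of mitochondrial biogenesis, 8 fell (57.1%, against 13.4% of all genes) and 1 rose, and the median difference was -0.35, or -0.13 with spike-in centring. By the exact permutation test 8 were lower and 0 higher. With spike-in centring the calls of Polrmt, Gabpb1, Tfb2m, Yy1, Ppargc1b and Esrrg were lost (limma adjusted p = 0.0606 to 0.684). With the clock score those of Polrmt, Gabpb1, Tfb2m, Yy1, Ppargc1b and Tfb1m were lost (limma adjusted p = 0.0645 to 0.340). Esrrg, a nuclear receptor that drives respiratory genes, fell by 0.76 ± 0.24 (SE, limma adjusted p = 0.0219), with 2 of 8 NASH model samples and 0 of 8 control samples below the floor, and lost its call with spike-in centring (-0.62, limma adjusted p = 0.0703) and without NASH model 2 and 7 (-0.67, limma adjusted p = 0.0834), among others. Ppargc1a, the coactivator PGC-1alpha, rose by 0.67 ± 0.24 (SE, limma adjusted p = 0.0470), with levels of 7.03, 7.92 and 8.87 in NASH model samples and 6.59, 7.40 and 7.65 in control samples. Its call was kept in 10 of the 30 alternatives and was lost with the exact permutation test (adjusted p = 0.0909), with median centring (0.57, limma adjusted p = 0.0803), with the values as deposited (0.65, limma adjusted p = 0.0554), with the clock score (0.28, limma adjusted p = 0.669) and, among others, on leaving out control 1, 3, 6, 7 or 9 or NASH model 1a, 2, 3, 4 or 5 (highest limma adjusted p = 0.0999).

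Outside the chain itself, the import and mass markers had 4 of 18 genes higher and 1 lower, and the median of 0.04 turned negative with median centring. Slc25a4, the ADP and ATP carrier of muscle and heart, rose by 1.23 ± 0.15 (SE, limma adjusted p = 4.44e-06), and Vdac2, an outer membrane channel, rose by 0.41 ± 0.08 (SE, limma adjusted p = 0.000757), a call lost with the clock score (limma adjusted p = 0.0767). The citric acid cycle had 4 of 16 genes higher and 3 lower with a median of 0.00, and Idh2 and Idh3a, mitochondrial isocitrate dehydrogenases, rose by 1.49 ± 0.08 and 0.59 ± 0.09 (SE, limma adjusted p = 4.78e-11 and 4.83e-05).

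Among 13 genes for uncouplers and other electron entry, 3 rose and 3 fell, with a median of -0.06 that turned positive with the values as deposited and with spike-in centring. Atpif1, the inhibitor that blocks reverse running of ATP synthase, rose by 1.26 ± 0.13 (SE, limma adjusted p = 4.00e-07), with levels of 7.44, 7.72 and 8.03 in NASH model samples and 6.09, 6.42 and 6.97 in control samples, and no overlap. Slc25a27, a carrier of the uncoupler family, rose by 0.89 ± 0.22 (SE, limma adjusted p = 0.00453), a call lost with the clock score (0.48, limma adjusted p = 0.3499). The hypoxia list had 1 of 14 genes higher and 3 lower, with a median of -0.12 that turned to 0.01 with spike-in centring. Pdk1, a kinase that shuts pyruvate out of the mitochondria, fell by 1.09 ± 0.15 (SE, limma adjusted p = 1.74e-05), and the glucose transporter Slc2a1 rose by 0.75 ± 0.13 (SE, limma adjusted p = 0.000181).

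**Figure D4:**
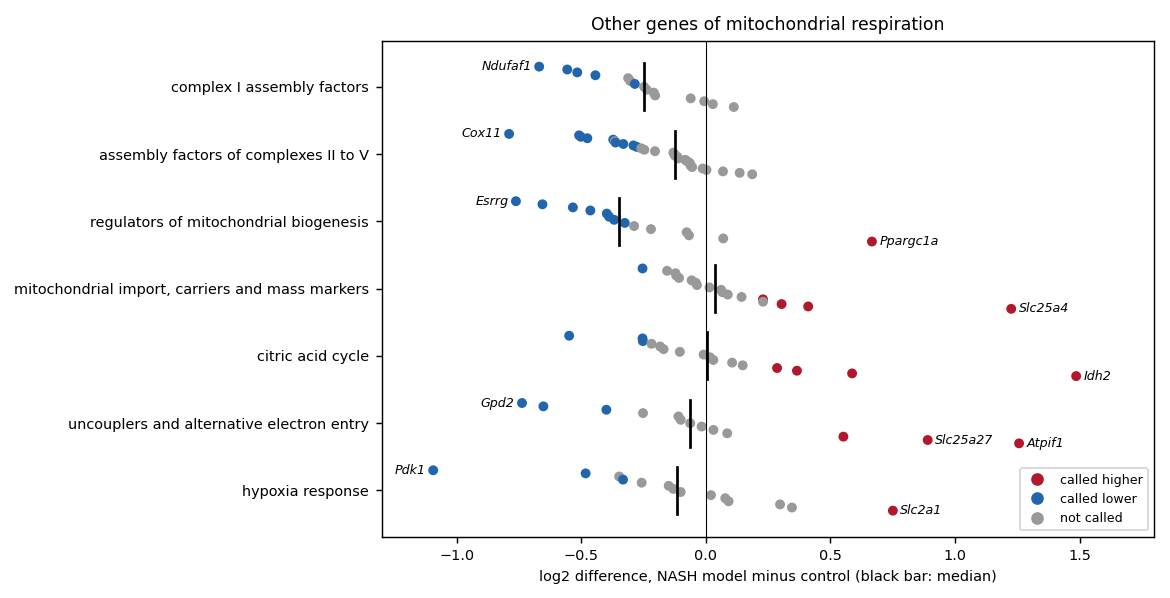
Log2 difference (NASH model minus control) of each gene of 7 lists around the respiratory chain, a row per list, with the list median as a black bar and colour for the call. Idh2, Atpif1 and Slc25a4 lie farthest to the right, and Pdk1 farthest to the left.

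**Figure D5:**
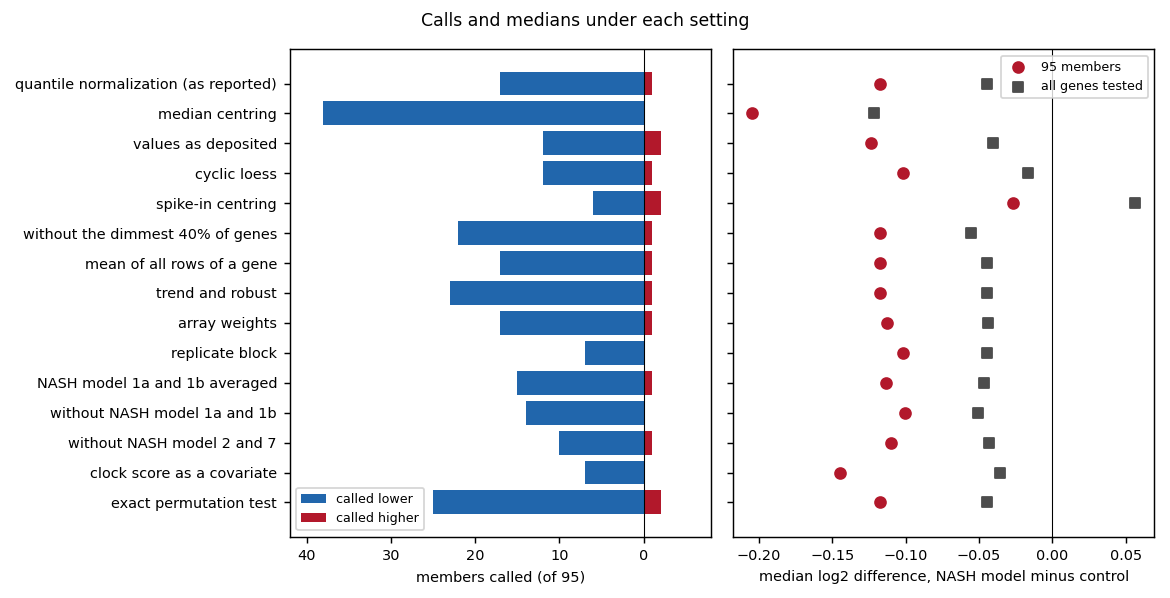
Counts of the 95 genes called lower and higher (left) and the median difference of the 95 genes and of all genes (right) under the main setting and each alternative. The count called lower runs between 6 with spike-in centring and 38 with median centring, against 1179 and 3646 of all 19505 genes. The median of the 95 genes is -0.12 as reported, against -0.04 for all genes.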

How the data were processed

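Liver RNA of 8 NASH model and 8 control samples was isolated with TRIzol, checked on a Bioanalyzer, labelled with biotin and measured by the standard Affymetrix protocol, per the labels' protocols. The authors deposited log2 signals for 29129 probe sets, and these were the starting values. Their background correction and summarisation, and the array's genome build, are not given in the sources used here. The values ran from 0.623 to 12.7. The platform annotation gave 1 symbol for 19572 probe sets, several for 0 and none for 9557.

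Array medians differed by 0.14, so values were quantile normalized over all probe sets, which changed none by more than 0.16. The table reduces to 19505 genes, each by its brightest probe set (55 genes had several), and no dim gene was removed. Groups were compared with limma 3.58.1 (R 4.3.3, lmFit and eBayes, group as the only term, two-sided), with Benjamini-Hochberg adjustment over all genes and calls at an adjusted p under 0.05. The steps were tested on simulated data. The number of arrays limits the precision.

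Genes were named with full values by rule: the 4 called members with the largest differences in each complex, the complex II, Cyc1 and Cycs genes, and the isoform sets; other members are named with their differences, chosen after their values were seen, and of each pathway list the 2 called members with the largest differences (a gene of the main set counts under both). The members and lists were chosen with earlier results of these data known. The assignment of subunits to parts of complexes I and V follows their known structure. NASH model 1a and 1b, whose gene-wise differences had an SD of 0.387, close to the 0.340 to 0.466 of the remaining 27 pairs of that group, were kept as separate samples. The covariate called clock score comes from 16 circadian clock genes. Its weights are those of their leading within-group principal component. They were applied to values centred over all samples, so the score can carry a difference between the groups. With it some calls were lost though the difference grew, as for Ndufb6 (-0.40, limma adjusted p = 0.0558), while other differences shrank, as for Ndufb3 (-0.50). Spike-in centring used 18 hybridization control probe sets. The exact permutation test enumerated all 12870 assignments of 8 samples to each group, with a smallest possible p of 0.000155. Promoter sequences are from RefSeq (GRCm38.p6), read with Python 3.11.15. Genes encoded by mitochondrial DNA carry no name in the annotation used and were not analysed here as members.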

Additional observations from a re-analysis of the deposited data

Results flagged for a closer look

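Within the 8 samples of a group, the highest or lowest sample was set against its nearest neighbour, relative to the whole range of the group (Dixon's test), in 78 checks, and 4 stood apart. Chance alone gives about 1 in 20. Sdha was 6.68 in NASH model 7, with the next NASH model sample at 7.33, and its call held without that sample. Ndufa4 was 9.83 in NASH model 1b, with the next at 9.95. Cox7a2 was 8.20 in control 9, with the next at 8.42 and the others up to 8.62. Cox4i2, near background, was 4.22 in control 6, with the next at 3.13.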

How the results depend on the processing

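Of the 95 genes, 17 were called lower and 1 higher. The count lower is given here with that of all 19505 genes in brackets. It was 38 with median centring (3646), 6 with spike-in centring (1179), 7 with the clock score as a covariate (1255) and 10 without NASH model 2 and 7 (2107). It lay between 13 and 18 on leaving out 1 sample. The count higher was 0 with median centring, with the clock score and without NASH model 1a and 1b, 2 with the values as deposited, with spike-in centring and with the exact permutation test, and 1 on leaving out any 1 sample. With the replicate number as a block (replicate block), 7 were lower and 0 higher, against 1861 lower and 2063 higher over all genes. Deviations of samples with the same number had r between -0.03 and 0.06 over 7 pairs. In 1 of these pairs the NASH model sample correlated best with the control of its own number. Whether the numbers pair the samples in any other respect was not tested. The other settings left both counts within 1.5 times the main ones. All 18 called genes kept their sign in the 30 alternatives, and Ndufaf1, Ndufb11 and Sdha were called in each. Over the 18 called genes, 431 of 540 values kept the call and 109 lost it, and for the genes named by rule that were not called 551 of 565 stayed uncalled and 14 passed. The share of calls that were higher was 49.6% over all genes, 39.2% with median centring and 73.7% with spike-in centring, and for the 95 genes 5.56%, against 25.0% with spike-in centring. The causes of these changes were not tested. Levels near the floor limit what can be seen of Cox7b2, Cox8b, Cox8c, Cox6b2, Cox4i2 and Ndufa4l2.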

Other observations

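The table held 9 rows without a symbol whose identifiers carry the prefix of the mitochondrial chromosome, a reading of identifiers whose chromosome matched RefSeq for 99.99% of named autosomal rows. Their mean levels lay between 9.33 and 12.47 in NASH model samples and between 9.41 and 12.46 in control samples. Their differences (NASH model minus control) lay between -0.09 and 0.18. Which genes they measure is not known here, and the values are given without a test.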
